A study of Homo sapiens with 10 samples.

Results

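The genes described are 5 members of the interferon regulatory factor (IRF) family, IRF1, IRF2, IRF3, IRF7 and IRF9, taken by symbol from the 32738 genes of the count tables. They were measured by single-cell RNA sequencing in HCT-116, an established human colon cancer line. One set of cells had been given 200 nM doxorubicin (DOX), a DNA-damaging chemotherapy drug, for 24 h and left to recover without it for 6 d, and the other set was untreated. Each condition has 2 libraries, called replicates 1 and 2, and no source says whether these came from separate cultures, so p-values measure only the spread between these libraries. All the cells are of 1 line, and 8000 barcodes were kept by instruction in each DOX library, most of them shallow, against 4701 and 2528 in the untreated libraries. A further 6 bulk samples of the series were not used here.

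IRF proteins share a DNA-binding domain that recognises interferon-stimulated response elements. IRF3 is present in most cells and is switched on by phosphorylation after the sensing of viral or cytosolic nucleic acid, while IRF7 amplifies type I interferon production and is itself encoded by an interferon-stimulated gene. IRF9 is the DNA-binding subunit of the ISGF3 complex, which carries the type I interferon signal to the nucleus and also works in an unphosphorylated form (U-ISGF3). IRF1 activates interferon gamma targets and antigen presentation genes, and IRF2 binds many of the same sites and is best known for opposing IRF1.

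All 5 genes are protein-coding. By GENCODE v44 lifted to GRCh37 (hg19), IRF1 lies on the minus strand of chromosome 5 from 131776132 to 131844411, IRF2 on the minus strand of chromosome 4 from 185306856 to 185395712, and IRF3 on the minus strand of chromosome 19 from 50162826 to 50169132. IRF7 lies on the minus strand of chromosome 11 from 612553 to 615983, and IRF9 on the plus strand of chromosome 14 from 24630443 to 24637252. The libraries read the 3′ ends of transcripts, so overlap with other genes there bears on whether, and for which gene, a molecule is counted. In IRF9, 387 of the last 500 exonic bases of the main transcript (77.4%) are also exonic in RP11-468E2.4, a gene model on the same strand, so the level of IRF9 is uncertain. The same stretch of the other members is shared with no other gene of the count tables.

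Promoter sequences in RefSeq (GRCh38.p14) were at hand for IRF1 and IRF9. Both hold the gamma-activated sequence TTCNNNGAA, a motif of interferon gamma-responsive promoters, within 250 bases before and 50 bases after the start site, searched on both strands. That motif is in 7.66% of 35116 promoters of the same length. The interferon-stimulated response element bound by IRF proteins, searched as GAAA and GAAA with any 2 bases between them, was found in neither window and is in 3.57% of the promoters. The matches are shown, with the motif in capitals, because interferon gamma response genes are among the lists described below, and they describe letters, not binding. The IRF1 stretch is chr5:131826570-131826599 on the minus strand and the IRF9 stretch chr14:24630401-24630430 on the plus strand, both in GRCh37. The motif runs from base -124 to -116 of the IRF1 start site and from -63 to -55 of the IRF9 start site. These start sites are those of RefSeq. The IRF1 stretch lies inside the GENCODE span of IRF1 given above, whose outer end is another start site.
IRF1: acagcctgatTTCCCCGAAatgacggcacg
IRF9: accacgtgatTTCTGGGAAaaggccctccc

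Levels were compared in deep barcodes, meaning droplets with at least 20000 unique molecular identifiers (UMIs, 1 per captured mRNA molecule) and under 8% of UMIs from mitochondrial genes. There were 1307 and 1080 in the DOX libraries and 3572 and 2137 in the untreated libraries, with median depths of 72676 and 84829.5 UMIs in DOX and 72791.5 and 81168 UMIs in untreated cells. At most 2 deep barcodes were shared by any pair of libraries. As a check of the treatment, CDKN1A, the p53-induced cell cycle inhibitor p21, had 281.1 and 239.6 CPM (UMIs of a gene per 1000000 UMIs) in DOX and 29.1 and 29.3 CPM in untreated barcodes, and GDF15, a stress-induced cytokine, had 311.6 and 252.6 CPM in DOX and 42.0 and 32.6 CPM in untreated barcodes. All 10 epithelial markers were detected in every library. At 1 CPM or more there were 9 in each DOX library and 8 in each untreated library. Their summed level was 6317 and 5978 CPM in DOX, against 4005 and 3625 CPM in untreated barcodes. Of 17 markers of other cell types 16 and 14 were detected in DOX and 16 and 15 in untreated libraries. The summed level of these 17 was 10.5 and 11.8 CPM in DOX, against 6.60 and 6.74 CPM in untreated barcodes, and NKG7 was at 0 in all 4 libraries. Their part in the results was not tested.

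In deep barcodes, IRF7 and IRF9 rose most among the 5 members after DOX, IRF1 and IRF2 rose less, and IRF3 differed least. By edgeR's quasi-likelihood test on UMIs summed per library (Benjamini-Hochberg adjusted over all genes, threshold 0.05), 4 members passed as higher and 1 as lower. Of all 21563 genes tested, 54.6% were called, 28.2% as higher and 26.4% as lower, so a call alone says little and sizes matter more. Log2 fold changes use TMM scaling, under which the median over all genes tested was 0.04, against 0.21 with scaling by total UMIs, a shift of -0.17.

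IRF7 had 13.7 and 14.6 CPM in the DOX libraries, against 2.22 and 2.18 CPM in the untreated libraries. Both DOX libraries were far above both untreated ones. The means were 14.1 ± 0.67 CPM in DOX and 2.20 ± 0.03 CPM in untreated barcodes (SD, n = 2 each), a log2 fold change of 2.51 (SE 0.08, edgeR adjusted p = 2e-07), or 5.69-fold.

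CPM were not divided by gene length, and the part of intronic reads in the counts was not tested. As counted, IRF9 had the lowest level of the 5 members in every library, though its shared 3′ end leaves that level uncertain. It had 4.06 and 5.28 CPM in DOX, against 0.858 and 1.04 CPM in untreated libraries. The log2 fold change was 2.14 (SE 0.14, edgeR adjusted p = 1.1e-05). In untreated replicate 1 a single barcode held 9.20% of the 250 IRF9 UMIs. RP11-468E2.4, which shares the 3′ end, also rose, by 1.53 (SE 0.15, edgeR adjusted p = 7.3e-05). STAT2, which binds IRF9 in ISGF3, had 14.8 and 14.6 CPM in DOX and 6.54 and 7.57 CPM in untreated barcodes, and rose as well (log2 fold change 0.90, SE 0.07, edgeR adjusted p = 1.9e-05).

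IRF1 had 22.5 and 22.2 CPM in DOX, against 11.7 and 11.9 CPM in untreated libraries, a log2 fold change of 0.75 (SE 0.06, edgeR adjusted p = 2.4e-05). IRF2, its antagonist at many sites, had 13.7 and 14.5 CPM in DOX, against 8.11 and 8.38 CPM in untreated libraries, a log2 fold change of 0.60 (SE 0.06, edgeR adjusted p = 9.5e-05). For both genes the DOX libraries lay above the untreated ones, and the share of all genes so separated was not counted. C5orf56, which overlaps IRF1 on the opposite strand, rose by 1.19 (SE 0.10, edgeR adjusted p = 2.9e-05).

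IRF3 had the highest level of the 5 members in every library and the smallest difference between the conditions. It had 29.9 and 32.3 CPM in DOX, against 30.4 and 32.4 CPM in untreated libraries, and the ranges overlapped. The log2 fold change was -0.18 (SE 0.06, edgeR adjusted p = 0.03) with TMM scaling, and -0.01 (adjusted p = 0.9) with scaling by total UMIs. The call was also lost without DOX replicate 1 (-0.15, adjusted p = 0.25) and without DOX replicate 2 (-0.24, adjusted p = 0.057). BCL2L12, an opposite-strand neighbour whose exons overlap IRF3, fell by 0.96 (SE 0.07, edgeR adjusted p = 1.6e-05).

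Other IRF genes were measured in the same contrast. IRF5, which acts downstream of Toll-like receptors, had 3.80 and 3.82 CPM in DOX and 2.79 and 2.82 CPM in untreated libraries. It rose by 0.27 (SE 0.09, edgeR adjusted p = 0.033), but passed in neither of the low and high MKI67 and TOP2A classes described below. There it was at 0.89 (SE 0.32, edgeR adjusted p = 0.078) in the low and 0.04 (SE 0.12, edgeR adjusted p = 0.84) in the high class. The part of the class mix in its rise was not tested. The lymphoid factor IRF4 was at 0.0412 CPM or less in every library and was not tested. IRF8, a myeloid factor, had 2 and 13 UMIs in DOX and 0 in both untreated libraries.

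**Figure D1:**
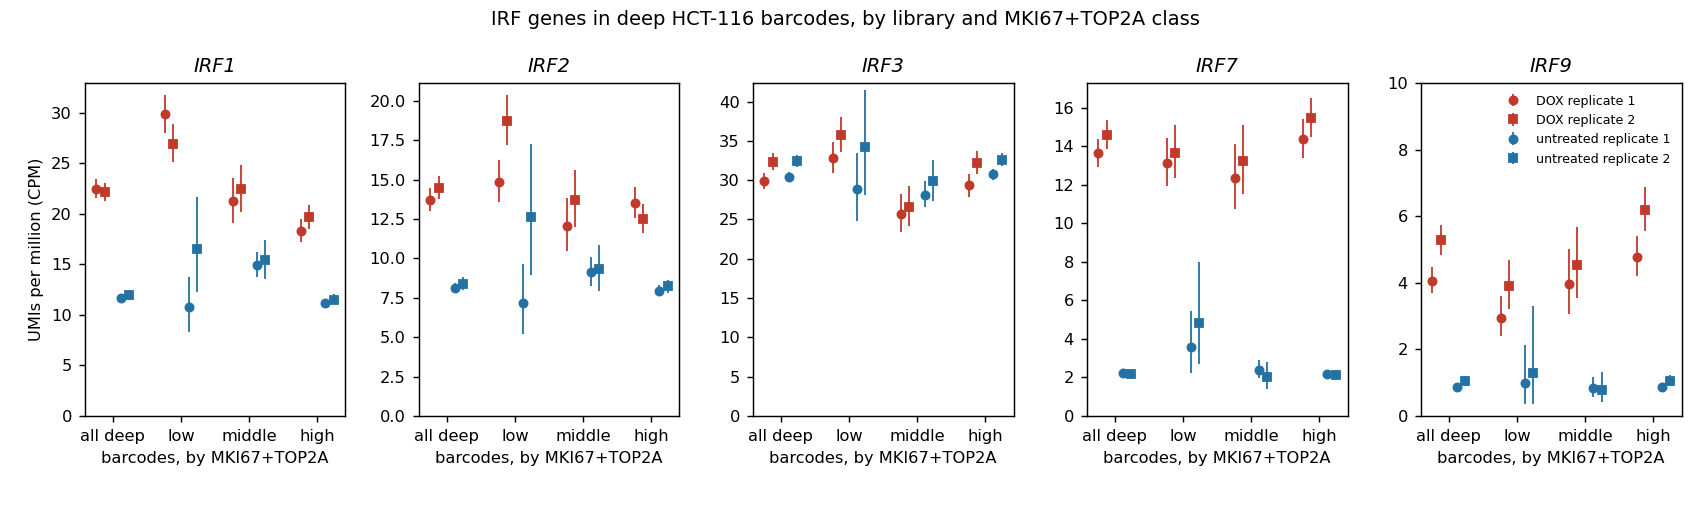
CPM (vertical axis, from 0) of each member in all deep barcodes and in barcodes with few, intermediate or many MKI67 and TOP2A UMIs, with DOX libraries in red and untreated libraries in blue; bars are 95% Poisson intervals, which cover counting error only. IRF7 stood at 13.7 and 14.6 in all deep DOX barcodes, against 2.22 and 2.18 in untreated ones, while IRF3 overlapped.

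The same contrast was then made within classes of barcodes. MKI67 and TOP2A mark proliferating cells, and deep barcodes were split into a low class (at most 3 UMIs of both together) and a high class (at least 15). The low class held 413 and 297 DOX barcodes, against 113 and 48 untreated barcodes. The high class held 628 and 564 DOX barcodes, against 2685 and 1805 untreated barcodes. The low classes still differed in the genes used for the split. MKI67 had 4.49 and 3.70 CPM in DOX, against 17.2 and 12.6 CPM in untreated barcodes of the low class, and TOP2A had 3.37 and 2.97 CPM in DOX, against 12.7 and 9.37 CPM in untreated ones. Median depths in the low class were 76430 and 93553 UMIs in DOX but 47160 and 55985 UMIs in untreated barcodes, and the part of this gap in the class results was not tested beyond the thinned values given below.

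In the high class, IRF7, IRF9, IRF1 and IRF2 were again higher after DOX and IRF3 did not pass, which makes 4 of 5 members called as higher. Of 20167 genes tested 32.3% were called, 16.4% as higher and 15.9% as lower. IRF7 had 14.4 and 15.5 CPM in DOX, against 2.16 and 2.15 CPM in untreated libraries, a log2 fold change of 2.70 (SE 0.09, edgeR adjusted p = 2.3e-08). IRF9 had 4.79 and 6.19 CPM in DOX, against 0.859 and 1.07 CPM in untreated libraries, a log2 fold change of 2.43 (SE 0.15, edgeR adjusted p = 2.8e-06). IRF1 rose by 0.66 (SE 0.07) and IRF2 by 0.60 (SE 0.08), whereas IRF3 was at -0.13 (SE 0.06, edgeR adjusted p = 0.15).

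In the low class, IRF1, IRF7 and IRF9 passed as higher, which makes 3 of 5 members. Of 16522 genes tested 26.0% were called, 12.1% as higher and 13.9% as lower. IRF1 had 29.8 and 26.9 CPM in DOX, against 10.8 and 16.5 CPM in untreated libraries, a log2 fold change of 1.02 (SE 0.18, edgeR adjusted p = 0.0053). IRF7 had 13.2 and 13.7 CPM in DOX, against 3.59 and 4.85 CPM in untreated libraries, where it rested on 22 and 15 UMIs, and rose by 1.61 (SE 0.21, edgeR adjusted p = 0.0015). With every barcode thinned to 20000 UMIs the log2 fold change of IRF7 was 2.46 (adjusted p = 0.00041). Thinning left 1 IRF7 UMI in each of 5 of 113 and 3 of 48 untreated barcodes of the low class. The thinned IRF7 values of that class rest on those few UMIs.

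IRF9 in the low class had 98 and 113 UMIs in DOX but only 6 and 4 UMIs in untreated libraries, and its log2 fold change of 1.52 (SE 0.41, edgeR adjusted p = 0.029) was not stable as a call. Without DOX replicate 2 it was 1.32 (adjusted p = 0.19), without untreated replicate 1 it was 1.30 (adjusted p = 0.13), and with every barcode thinned to 20000 UMIs it was 0.81 (adjusted p = 0.31). IRF2 had 14.9 and 18.7 CPM in DOX, against 7.19 and 12.6 CPM in untreated libraries, with a log2 fold change of 0.74 (SE 0.24, edgeR adjusted p = 0.056). It passed with the replicate number as a block (0.71, adjusted p = 0.011), without DOX replicate 1 (0.90, adjusted p = 0.0038) and without untreated replicate 2 (1.04, adjusted p = 0.0052). It did not pass without DOX replicate 2 (0.57, adjusted p = 0.1) or without untreated replicate 1 (0.31, adjusted p = 0.42). A single low-class barcode held 27 of the 494 IRF2 UMIs in DOX replicate 1 and 57 of the 542 in DOX replicate 2. IRF3 was at 0.02 (SE 0.12, edgeR adjusted p = 0.92).

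**Figure D2:**
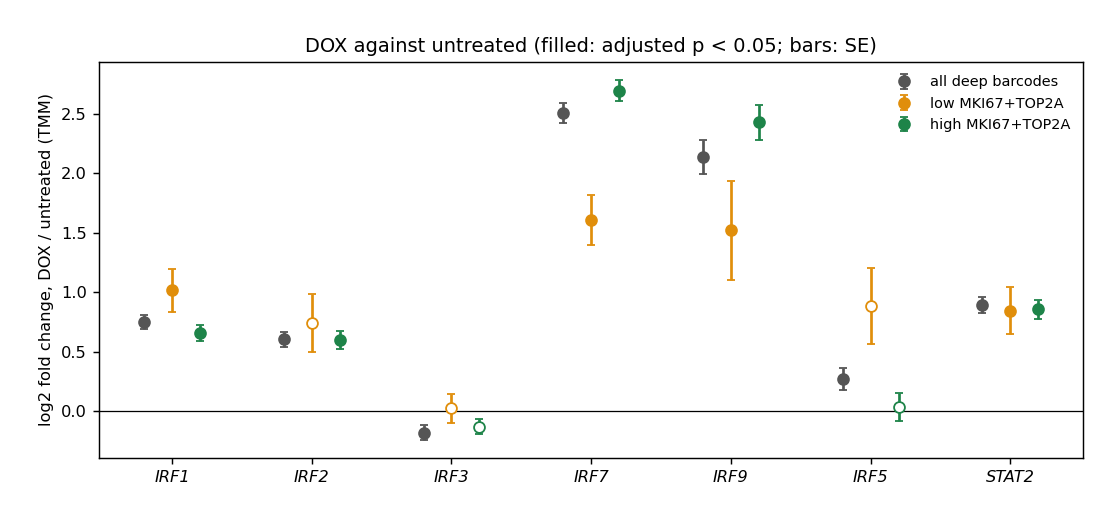
Log2 fold change of DOX over untreated (vertical axis, TMM scaling) for the members, IRF5 and STAT2 in all deep barcodes (grey), the low class (orange) and the high class (green); bars are SE and filled points passed an adjusted p of 0.05. IRF7 was at 1.61 in the low class (2.46 with thinned barcodes, not drawn) and 2.70 in the high class, and IRF3 lay near 0.

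Within the DOX libraries, the summed level of IRF1 was higher in the low than in the high class and that of IRF9 was lower, so 1 member was called in each direction. Of 19572 genes tested 49.6% were called, 23.2% as higher and 26.3% as lower. IRF1 had 29.8 and 26.9 CPM in the low class, against 18.3 and 19.7 CPM in the high class, a log2 fold change of 0.47 (SE 0.10, edgeR adjusted p = 0.0026), and without DOX replicate 1 it was 0.34 (adjusted p = 0.12). After thinning to 20000 UMIs, an IRF1 UMI was found in 31.48% and 28.96% of low-class DOX barcodes, against 30.1% and 33.16% of high-class ones. The share thus differed little in replicate 1 and was lower in replicate 2. Barcodes with an IRF1 UMI held a mean of 1.885 and 1.93 in the low class, against 1.339 and 1.289 in the high class. Before thinning, a single barcode held 6.357% and 4.231% of the low-class IRF1 UMIs. IRF9 had 2.95 and 3.90 CPM in the low class, against 4.79 and 6.19 CPM in the high class, and fell by 0.79 (SE 0.18, edgeR adjusted p = 0.0031). That call was lost without DOX replicate 1 (-0.78, adjusted p = 0.064), without DOX replicate 2 (-0.82, adjusted p = 0.072) and with thinning (-0.56, adjusted p = 0.12). IRF7 did not pass (-0.26, SE 0.11, edgeR adjusted p = 0.068), nor did IRF2 (0.26, adjusted p = 0.14) or IRF3 (0.05, adjusted p = 0.59). IRF7 passed without untreated replicate 1 (-0.29, adjusted p = 0.018) and without untreated replicate 2 (-0.27, adjusted p = 0.022). IRF2 passed without DOX replicate 1 (0.47, adjusted p = 0.048) and was at 0.01 (adjusted p = 0.98) without DOX replicate 2.

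Within the untreated libraries 28.9% of the same genes were called, 7.19% as higher and 21.7% as lower in the low class, and IRF7 was the 1 member that passed. It had 3.59 and 4.85 CPM in the low class, against 2.16 and 2.15 CPM in the high class, a log2 fold change of 0.80 (SE 0.24, edgeR adjusted p = 0.028). Without untreated replicate 2 it was 0.59 (adjusted p = 0.2), and with thinning it was -0.03 (adjusted p = 0.98). The test of the difference between the class effects, DOX minus untreated, called 7.75% of genes, 3.36% as higher and 4.38% as lower. Of the members IRF7 passed, at -1.05 (SE 0.27, edgeR adjusted p = 0.035). With thinning it was -0.03 (adjusted p = 0.99), where only 5 and 3 untreated barcodes of the low class held an IRF7 UMI. It was also lost without DOX replicate 1 (adjusted p = 0.068), without DOX replicate 2 (adjusted p = 0.089) and without untreated replicate 2 (adjusted p = 0.098). IRF1 was at 0.39 (adjusted p = 0.28), and at 0.65 (adjusted p = 0.044) without untreated replicate 2.

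To ask how many cells carried each transcript, every deep barcode was thinned to 20000 UMIs. An IRF7 UMI was found in 21.96% and 22.4% of DOX barcodes, against 4.76% and 4.49% of untreated barcodes. Exact binomial 95% intervals, which cover counting error only, were 19.7% to 24.3% and 19.95% to 25.0% in DOX and 4.08% to 5.51% and 3.65% to 5.46% in untreated barcodes. IRF9 was found in 7.19% and 10.7% of DOX barcodes, against 1.54% and 2.25% of untreated barcodes. IRF1 was found in 30.7% and 31.2% of DOX barcodes, against 20.7% and 22.4% of untreated barcodes, and IRF2 in 21.7% and 22.7% of DOX barcodes, against 14.4% and 15.1% of untreated barcodes. IRF3 was found in 43.3% and 44.6% of DOX barcodes, against 45.2% and 47.9% of untreated barcodes. The samples hold 1 cell line, so there is no cell type lacking these genes to set a background share. These shares are descriptions, and no test was run on them.

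The members also differed in how unevenly their UMIs were spread over cells. The Fano factor, variance over mean, is 1 for counting noise alone. At 20000 UMIs it was 2.57 and 1.68 for IRF1 in DOX barcodes, against 1.02 and 1.15 in untreated barcodes. In the low class of the DOX libraries it was 4.53 and 2.52, against 1.26 and 1.23 in the high class, and the highest barcode of DOX replicate 1 held 23 IRF1 UMIs. IRF2 had 1.60 and 1.73 in DOX, against 1.07 and 1.04 in untreated barcodes. In the low class of the DOX libraries IRF2 was at 2.43 and 2.54, where the highest barcodes held 12 and 10 of its UMIs, against 1.13 and 1.21 in the high class. IRF7 had 1.31 and 1.37 in DOX, against 1.06 and 1.09 in untreated barcodes. IRF3 stayed close to counting noise, at 1.07 and 1.16 in DOX and 1.00 and 1.01 in untreated barcodes. For IRF9 the values were 1.04 and 1.17 in DOX and 1.69 and 1.06 in untreated barcodes, where the barcode that led untreated replicate 1 held 7 of its thinned UMIs.

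Deep barcodes of each library were then ranked by their summed UMIs of the U-ISGF3-induced genes, with IRF7 left out of the sum, and divided into 5 quintiles. In both DOX libraries IRF7 was higher in each successive quintile. Its mean per 20000 UMIs in the quintiles, lowest to highest, was 0.0725, 0.164, 0.261, 0.345 and 0.536 in DOX replicate 1 and 0.111, 0.157, 0.227, 0.310 and 0.630 in DOX replicate 2. In untreated barcodes it was 0.0462 in the lowest and 0.0490 in the highest quintile of replicate 1, and 0.0374 and 0.0679 in replicate 2. The sum itself had a mean of 65.3 and 61.1 UMIs in the highest DOX quintile, against 9.15 and 9.16 UMIs in the highest untreated quintile.

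The other members followed the sum less. IRF1 had 0.393 and 0.352 UMIs per 20000 in the lowest DOX quintile and 0.644 and 0.639 in the highest, with no steady order between them. IRF9, a subunit of the complex that defines the list, had 0.0878 and 0.102 in the lowest and 0.0920 and 0.162 in the highest DOX quintile. IRF3 had 0.569 and 0.620 in the lowest and 0.582 and 0.681 in the highest. Over single barcodes the Pearson r of IRF7 with the sum was 0.28 and 0.30 in DOX, against -0.01 and 0.04 in untreated barcodes, and for IRF9 it was 0.02 and 0.05 in DOX. Barcodes of a library share its preparation, and with so few UMIs per gene such values are descriptions only.

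**Figure D3:**
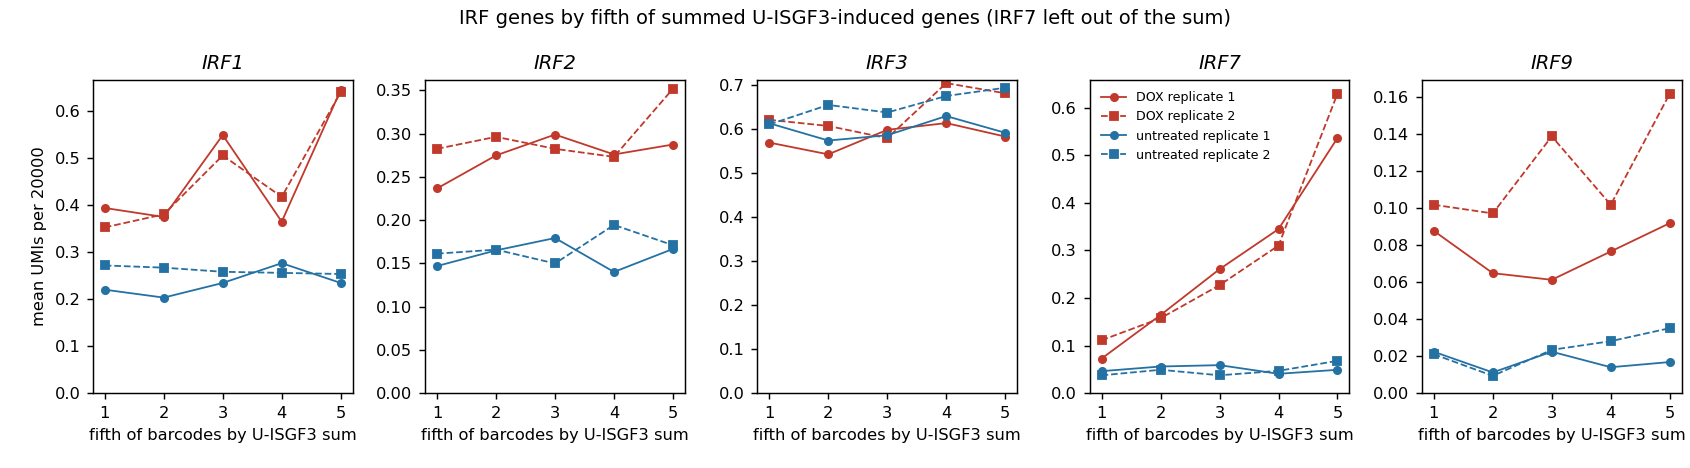
Mean UMIs per 20000 (vertical axis, from 0) of each member in the quintiles of deep barcodes ranked by the summed U-ISGF3-induced genes (horizontal axis), with DOX in red and untreated in blue. IRF7 was at 0.536 and 0.630 in the highest DOX quintile and at 0.0490 and 0.0679 in the highest untreated quintile.

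The genes whose pattern over DOX barcodes was most like that of a member were ranked by the lower of the Pearson r in the DOX libraries, over 1307 and 1080 barcodes. For IRF7 they included ISG15 (0.25 and 0.28), IFIT1 (0.25 and 0.23), IFI6 (0.21 and 0.26) and PARP9 (0.15 and 0.18), and in untreated barcodes these lay between -0.01 and 0.04. For IRF1 they were BIRC3, an inhibitor of apoptosis (0.20 and 0.19), DDX58, which encodes the RNA sensor RIG-I (0.16 and 0.14), PARP14, WWC1 and the stress factor ATF3. Those of IRF2 were NHSL1, TBC1D5, HDAC4, LRBA and MAML3, those of IRF3 NEAT1, GSK3B, MALAT1, RP11-115D19.1 and MAGI1, and those of IRF9 RP11-191L9.4, MALAT1, DLEU1, ZBTB20 and FTX. None of the values for IRF2, IRF3 or IRF9 was above 0.17, and MALAT1 and NEAT1 are RNAs retained in the nucleus.

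Most barcodes of the DOX libraries were shallow, and the members were not alike in them. IRF9 had no UMI in the 4338 and 4243 shallow DOX barcodes (under 2000 UMIs and under 8% mitochondrial), which held 6338818 and 5523781 UMIs in all, so a level of up to 0.473 and 0.543 CPM is allowed, taken as 3 counts of the total (exact 95% Poisson upper limits, as drawn in the plot by depth, are 0.582 and 0.668 CPM). In the deep DOX barcodes it was at 4.06 and 5.28 CPM. These limits are for IRF9 as counted, and its shared 3′ end leaves its level uncertain here too. IRF1 was at 33.9 and 34.4 CPM in shallow and 22.5 and 22.2 CPM in deep DOX barcodes, IRF7 at 10.1 and 13.2 CPM in shallow and 13.7 and 14.6 CPM in deep ones, and IRF3 at 33.4 and 35.5 CPM in shallow and 29.9 and 32.3 CPM in deep ones. RP11-468E2.4 had 0 and 1 UMI in the shallow barcodes, and MALAT1 was at 2300 and 2917 CPM there, against 8932 and 8719 CPM in deep ones. The part of this shift in the lack of IRF9 UMIs was not tested.

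**Figure D4:**
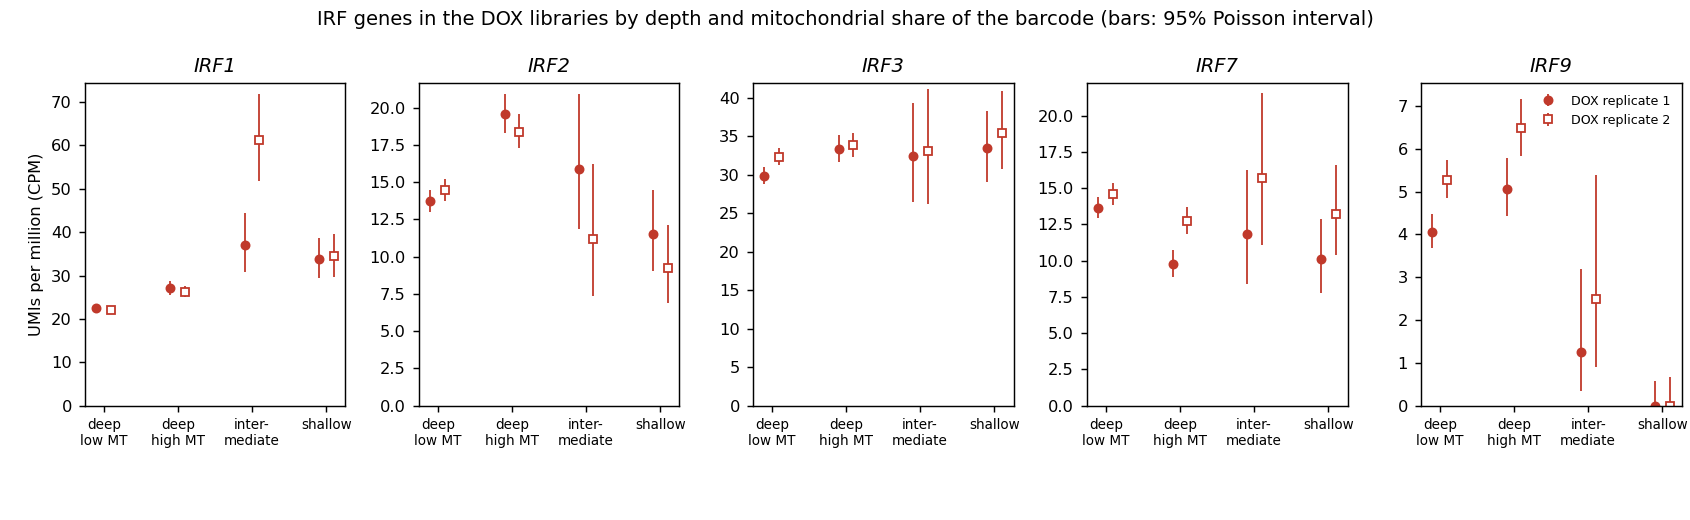
CPM (vertical axis, from 0) of each member in the DOX libraries, for deep barcodes with a low or high mitochondrial (MT) share, intermediate barcodes (from 2000 to under 20000 UMIs) and shallow barcodes; bars are 95% Poisson intervals, counting error only. As counted, IRF9 had 0 UMIs in shallow barcodes of both libraries, whereas IRF3 was at 33.4 and 35.5.

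The genes around the IRF factors were read from lists in the deep comparison, where 28.2% of all genes were higher and 26.4% lower and the median log2 fold change was 0.04. Of 27 tested U-ISGF3-induced genes other than IRF7, 26 were higher and none lower, with a median of 3.03. The list comes from earlier work on other cells that the study drew on, and it also holds DDX58, IFIH1 and BATF2. Among them IFI27 had 130.2 and 129.1 CPM in DOX and 1.70 and 1.54 CPM in untreated barcodes, and OAS1, which makes the activator of RNase L, had 11.0 and 10.1 CPM in DOX and 0.0412 and 0.0653 CPM in untreated barcodes. Of 18 antigen presentation genes linked to IRF1, 16 were higher and 1 lower (median 0.56), led by PSMB9, an immunoproteasome subunit, at 2.04 (SE 0.09), and HLA-B at 1.09 (SE 0.07). Of 16 interferon gamma response genes, 12 were higher and 2 lower (median 0.90).

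Upstream of IRF3 and IRF7 the picture was mixed. Of 22 sensors, adaptors and kinases, 10 were higher and 6 lower (median 0.00). The RNA sensors DDX58 and IFIH1, themselves interferon-stimulated, rose by 2.41 (SE 0.06) and 2.74 (SE 0.07), and OPTN, an adaptor for TBK1, rose by 1.86 (SE 0.07). Of 9 interferon receptor and JAK kinase genes, none was higher and 3 were lower, where 26.4% of all genes were lower. The 3 were IFNGR2 at -0.37 (SE 0.07), IFNAR2 at -0.26 (SE 0.06) and TYK2 at -0.23 (SE 0.06). TMM scaling itself shifted values by -0.17, and its part in these calls was not tested. Of the same 9 genes, 1 was lower and none higher in the high class, where 15.9% of all genes were lower and 16.4% higher. In the low class 1 was higher and none lower, where 12.1% of all genes were higher and 13.9% lower. Of 13 interferon genes only IFNE was abundant enough to test, at 0.327 and 0.235 CPM in DOX and 0.106 and 0.120 CPM in untreated barcodes. It rose by 1.14 (SE 0.32, edgeR adjusted p = 0.015). Within the low and high classes 1 of the 13 was tested in each, at -0.65 and 0.89, and neither value passed. IFNL1, named after its values were seen, had 127 and 3 UMIs in DOX and 3 and 0 UMIs in untreated barcodes, so its level rested on DOX replicate 1. Of 10 proteins that act with IRF factors in complexes, 6 were higher and 2 lower (median 0.41), and BATF2 rose by 2.44 (SE 0.16). Of 26 p53 target genes 24 were higher and none lower (median 0.99).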

How the data were processed

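The authors deposited raw UMI counts per gene and barcode, without normalization, from 10x 3′ libraries aligned to hg19. Cell Ranger appears as 7.2.0 in the file headers and as 7.0.0 in the submitters' processing notes, which also name bedtools 2.25, SAMtools 1.2 and CASAVA 1.8.2. Whether counting used strand is not given in the sources used here. The other deposited columns (gene symbols and barcodes) were used as labels, and no doublet caller or background correction was run.

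UMIs of deep barcodes were summed per library, with 102333220 to 291488794 UMIs per sum. They were tested with edgeR 4.0.16 (TMM, filterByExpr, quasi-likelihood F test, Benjamini-Hochberg), and with the library as a block for contrasts between classes. DESeq2 1.42.0 was an alternative. CPM are parts of all UMIs in the same barcodes. Fits were tested on simulated data. Replicates differed beyond counting (mean chi-square per degree of freedom 7.81 in DOX and 46.7 in untreated libraries). Thinning drew UMIs without replacement from a fixed seed. Figures were drawn with matplotlib 3.10.9, tables handled with pandas 2.3.3 and numpy 2.4.6, and intervals taken from scipy 1.17.1 (Python 3.11.15), while the fits ran in R 4.3.3.

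The members and lists were chosen with earlier results of these data known. Named genes were the members, other IRF genes, STAT2, overlapping genes, CDKN1A, GDF15, MKI67, TOP2A, up to 3 genes of smallest adjusted p per list, and the 5 genes most like each member (by the lower Pearson r of log2(1 + UMIs per 20000) in the DOX libraries) among those with a mean of at least 0.2 UMIs per 20000. Some genes that this rule names are not reported here. Alternatives were other scaling, filters, depth and mitochondrial limits, thinning, a class split by CPM, leaving out each library, and a replicate block.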

Additional observations from a re-analysis of the deposited data

Results flagged for a closer look

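The class effect of IRF7, low against high MKI67+TOP2A barcodes, differed between the conditions: the effect in DOX minus that in untreated libraries was -1.05 on the log2 scale (SE 0.27, edgeR adjusted p = 0.035), and it was -0.03 with every barcode thinned to 20000 UMIs. The untreated low class gave only 22 and 15 IRF7 UMIs, with 18.18% and 33.33% of them in the highest barcode of each library. After thinning only 5 and 3 of its barcodes held an IRF7 UMI. Barcodes of the untreated low class were also shallower than those of the high class (medians of 47160 and 55985 UMIs, against 81858 and 87004). The part of depth in this difference was not tested further.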

How the results depend on the processing

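IRF1, IRF2, IRF7 and IRF9 kept their direction and call in all 14 alternatives of the deep comparison and all 15 of the high class, as did IRF1 and IRF7 in all 15 of the low class. Other calls moved, and the cause was not tested. In deep barcodes IRF3 lost its call without TMM factors (-0.013), with a mitochondrial limit of 5% (-0.18), with upper limits of 12000 genes and 150000 UMIs (-0.16) and with thinning (-0.16). In the low class IRF2 passed without TMM factors (0.86), without a count filter (0.78), with the replicate block (0.71), a UMI floor of 10000 (0.75), a mitochondrial limit of 20% (0.78), the upper limits (0.80) and the CPM split (0.84). IRF9 did not pass there with DESeq2 (1.49), a mitochondrial limit of 5% (3.00), thinning (0.81) or the CPM split (1.29), and IRF3 changed sign with DESeq2 (-0.0043), a UMI floor of 40000 (-0.0033) and limits of 5% (-0.030) and 20% (-0.089). In the high class IRF3 passed with a limit of 20% (-0.19).

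Between classes in DOX, IRF2 passed without TMM factors (0.36) and with a mitochondrial limit of 20% (0.30), IRF7 without a count filter (-0.38), with a floor of 10000 (-0.31) and with a limit of 20% (-0.47), IRF9 did not with thinning (-0.56), and IRF3 changed sign without a filter (-0.069) and with a limit of 20% (-0.038). In untreated libraries IRF7 did not pass with a limit of 5% (1.04) and turned with thinning (-0.027), as did IRF1 (-0.11). IRF2 turned with a limit of 5% (-0.0065) and the CPM split (-0.024), IRF3 with a floor of 40000 (0.027) and a limit of 20% (0.0056), and IRF9 with a floor of 40000 (-0.049) and a limit of 5% (-1.66). In the difference of class effects IRF7 did not pass with a limit of 5% (-1.22) or thinning (-0.031), IRF2 turned with a floor of 40000 (-0.025), IRF3 with a limit of 20% (-0.044) and IRF9 with a limit of 5% (0.59).

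Genes called in the untreated class contrast numbered 5664, but 3067 with a limit of 5% and 2689 with thinning. For the difference of class effects 1516 became 2734 without a filter, 631 and 3244 with limits of 5% and 20%, and 987 with the CPM split.

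Leaving out each library in turn, with a lone library assumed to vary like the other condition, gave ranges of -0.24 to -0.15 for IRF3 in deep barcodes. In the low class they were 0.31 to 1.04 for IRF2, -0.096 to 0.084 for IRF3 and 1.30 to 1.71 for IRF9. Between classes in DOX they were 0.34 to 0.58 for IRF1, 0.010 to 0.47 for IRF2, -0.29 to -0.25 for IRF7 and -0.82 to -0.78 for IRF9. In untreated libraries they were -0.19 to 0.49 for IRF1, -0.29 to 0.59 for IRF2, -0.23 to 0.047 for IRF3 and 0.59 to 1.15 for IRF7. For the difference they were -0.048 to 0.65 for IRF1, -0.37 to 0.53 for IRF2, -0.024 to 0.27 for IRF3 and -1.44 to -0.86 for IRF7. Called genes numbered 4288 (without DOX replicate 2) to 7283 in the high class, 6089 (without DOX replicate 2; 6356 without DOX replicate 1) to 11123 between classes in DOX, and 973 (without DOX replicate 2) to 2184 for the difference.

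The samples share only a replicate number (r = 0.0066 between the deviations of replicate 1 in the conditions). The replicate block gave 12311 calls in deep barcodes, against 11772 without it, and IRF2 in the low class was the 1 member whose call it changed. Without thinning, shares of barcodes with a UMI were 68.4% in DOX and 57.9% in untreated for IRF1, 58.1% and 44.9% for IRF2, 86.4% and 87.6% for IRF3, 56.5% and 16.2% for IRF7 and 29.1% and 7.45% for IRF9, in the same order. Fano factors were 5.80 and 1.58 for IRF1, 3.33 and 1.48 for IRF2, 1.92 and 1.75 for IRF3, 2.33 and 1.20 for IRF7 and 1.41 and 2.08 for IRF9, in the same order. Depth limits the low class of untreated cells, where IRF9 rests on 6 and 4 UMIs.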

Other observations

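Deep barcodes with at least 8% mitochondrial UMIs were left out of the comparisons. They numbered 579 and 651 in DOX libraries, against 1307 and 1080 kept, and 395 and 173 in untreated libraries, against 3572 and 2137 kept. IRF7 kept the same order of conditions in them, with 9.79 and 12.7 CPM in DOX and 3.19 and 2.87 CPM in untreated libraries. It had 13.7 and 14.6 CPM in DOX and 2.22 and 2.18 CPM in untreated deep barcodes under that limit, a wider gap. In the barcodes left out, IRF9 had 5.07 and 6.48 CPM in DOX and 1.30 and 0.639 CPM in untreated libraries. IRF2 was at 19.6 and 18.4 CPM in these DOX barcodes, against 13.7 and 14.5 CPM in the deep DOX barcodes below that limit, and MALAT1, a nuclear RNA, was at 17293 and 16622 CPM, against 8932 and 8719 CPM.

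In intermediate DOX barcodes (from 2000 to under 20000 UMIs) IRF1 stood at 37.1 and 61.2 CPM, from 119 and 148 UMIs, above its 22.5 and 22.2 CPM in deep DOX barcodes.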
